A study of Mus musculus with 12 samples.

Results

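The genes described here are 10 interferon-induced GTPases of the mouse: the guanylate-binding protein genes Gbp2, Gbp3, Gbp5 and Gbp7, and the immunity-related GTPase genes Irgm1, Irgm2, Igtp, Iigp1, Tgtp1 and Tgtp2. They were taken by symbol from a table of 15672 genes, and all 10 were in it. Of these, 8 had log2 CPM above 0 in at least 3 of 12 libraries and entered the test across 14147 genes, while Tgtp1 and Tgtp2 did not. CPM is a count scaled to a common library size.

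RNA was sequenced from mouse tumour tissue labelled MB, for medulloblastoma, a tumour of the cerebellum, at end point. All tumours carried fSMO-M2, a conditional SMO-M2 allele that keeps Hedgehog signalling on through an active Smoothened, and hGFAPcre, a Cre recombinase driven by the human GFAP promoter, which is active in neural progenitors and astrocytes. SG mice had the genotype fSMO-M2;hGFAPcre. YSGr mice had the genotype fYap1;fSMO-M2;hGFAPcre, with a floxed allele of Yap1, the coactivator restrained by the Hippo pathway, and are called rescued, without a statement of what was rescued. There were 3 libraries each of SG males (numbered 1 to 3), SG females (4 to 6), YSGr males (7 to 9) and YSGr females (10 to 12). No age is given, and nothing states that each library came from a separate animal, so the p-values speak for the spread among these libraries, part of which may be technical. The 4 Gbp genes form a cluster on chromosome 3 (142493978 to 142638008 in GENCODE M21, build mm10). Irgm1, Tgtp1 and Tgtp2 lie on chromosome 11 from 48861968 to 49064206, Irgm2 and Igtp from 58199556 to 58222782 on the same chromosome, and Iigp1 on chromosome 18.

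Guanylate-binding proteins and immunity-related GTPases are made by most cell types in response to interferon, above all interferon gamma. They bind membranes of vacuoles that hold bacteria or protozoa, break them open and expose their contents to autophagy proteins and to inflammasomes. Among the immunity-related GTPases, Irgm1, Irgm2 and Igtp encode regulators that sit on the membranes of the cell's own organelles and hold the others inactive there, while Iigp1, Tgtp1 and Tgtp2 encode effectors that load onto pathogen vacuoles. In the brain the family is best known from resistance to Toxoplasma.

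The members, which were listed as interferon-induced genes, share a feature of their promoters, and the sequences are printed for it. RefSeq promoter windows on GRCm38.p6, running from 250 bases before to 50 bases after the gene start, were matched for 9 members; Iigp1 had no match. All 9 held the core of the interferon-stimulated response element, a site read by IRF factors, searched as GAAANNGAAA on both strands. The same letters were in 3.99% of 27025 genes with such windows. They were also in 3 of 6 other genes of the family, 5 of 10 type I interferon targets and 1 of 7 interferon gamma targets that had a window. The core of the gamma-activated site, a second interferon-responsive element, searched as TTCNNNGAA (the same on both strands), was in 6 of the 9 and in 9.55% of genes. A match describes letters in a window and not a bound site. In the stretches of 45 bases below, written 5′ to 3′ on the strand of the gene, capitals mark these motifs.
Gbp2 (chr3:142620584-142620628, plus strand): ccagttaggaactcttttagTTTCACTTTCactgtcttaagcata
Gbp3 (chr3:142559979-142560023, plus strand): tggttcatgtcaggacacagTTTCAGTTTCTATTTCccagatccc
Gbp5 (chr3:142496749-142496793, plus strand): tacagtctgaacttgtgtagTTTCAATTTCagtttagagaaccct
Gbp7 (chr3:142530263-142530307, plus strand): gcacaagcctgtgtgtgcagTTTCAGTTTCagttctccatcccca
Irgm1 (chr11:48871426-48871470, minus strand): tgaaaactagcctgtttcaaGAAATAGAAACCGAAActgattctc
Irgm2 (chr11:58214893-58214937, plus strand): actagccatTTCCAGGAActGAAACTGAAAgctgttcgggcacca
Igtp (chr11:58199502-58199546, plus strand): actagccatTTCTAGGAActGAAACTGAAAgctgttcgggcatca
Tgtp1 (chr11:48992299-48992343, minus strand): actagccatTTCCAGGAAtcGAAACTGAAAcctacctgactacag
Tgtp2 (chr11:49064258-49064302, minus strand): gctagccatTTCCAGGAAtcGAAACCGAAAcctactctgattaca

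In all 4 Gbp promoters the response element core lay on the strand opposite to the gene, and in all 5 Irg promoters on the strand of the gene. Gbp3 and Irgm1 each held a pair of overlapping matches. In Irgm2, Igtp, Tgtp1 and Tgtp2 a gamma-activated core stood 2 bases before the response element core, a block of 21 bases that was found in 5 of 27025 genes (0.0185%), these 4 and the neighbouring family gene Gm12185. That spacing was read off the members themselves, so its rarity is a description. The Igtp and Irgm2 stretches were identical at 43 of 45 bases, and the other pairs among these 4 at 31 to 34 of 45. Against the GENCODE M21 models, 27 bases of the Gbp2 stretch lay in its 5′ UTR, the Irgm1 stretch lay in an exon of a non-coding transcript of that gene, those of Gbp5, Irgm2 and Tgtp1 lay in introns of the same gene, and those of Gbp3, Gbp7, Igtp and Tgtp2 lay outside their genes. The RefSeq start of the window lay downstream of the GENCODE gene start for Irgm2, Gbp5, Tgtp1 and Irgm1, and slightly so for Gbp2 and Gbp3. A second window of Gbp3 held neither motif.

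**Figure D1:**
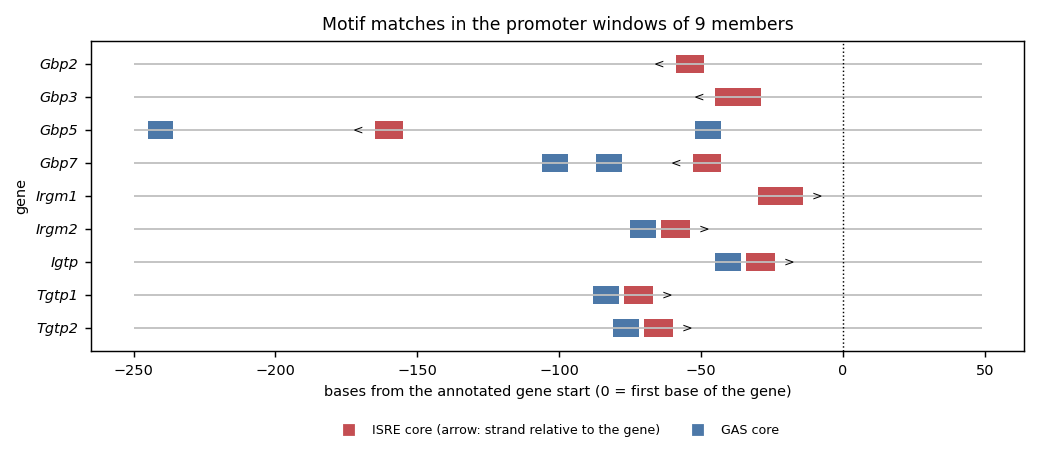
Positions of both motif cores in the promoter windows of 9 members, in bases from the RefSeq start of each window, which is 0. Red blocks are response element cores with an arrow for their strand relative to the gene, blue blocks are gamma-activated cores, and the red blocks lie between 165 and 15 bases before the start.

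Depth and library quality bear on every value that follows. Estimated reads, recovered from the steps of the deposited values, summed to 8854772 to 9478662 per library, and 1 read was worth 0.100 to 0.111 CPM. Apart from Irgm1, no member had more than 89 reads in a library, so single values carry a wide counting error. SG male 2 and YSGr male 8 stood apart from their groups: their correlations with the other libraries of the group across genes were 0.971 and at most 0.960, against 0.991 and 0.984 between the other 2 libraries of each. YSGr female 11 was at 0.969 to 0.973, against 0.982 between the other YSGr females. Yap1 had 174 to 253 reads in SG and 7 to 33 in YSGr libraries. The granule neuron progenitor and tumour markers (9 genes, Atoh1 and Gli1 among them) were present in every library, with a summed level of 4362 to 4835 CPM in SG and 2995 to 4971 CPM in YSGr.

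Of these GTPase genes 5 were higher in YSGr tumours than in SG tumours when the sexes were weighted equally, and none was lower. Gbp2, Gbp5, Irgm2, Igtp and Gbp3 rose, Gbp7 and Irgm1 did not pass the test in either direction, and Iigp1 narrowly missed it. The count of 5 of the 10 members stood against 6.16% of the tested genes called higher and 5.27% called lower (limma, Benjamini-Hochberg adjusted p under 0.05). The median log2 fold change of the 8 tested members was 1.01, beside -0.0048 over all genes tested. The median and the count cover genes that passed a filter: Gbp5 was above the filter level in 2 SG and 6 YSGr libraries and Iigp1 in 1 and 5, so both entered through the group in which they were high.

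**Figure D2:**
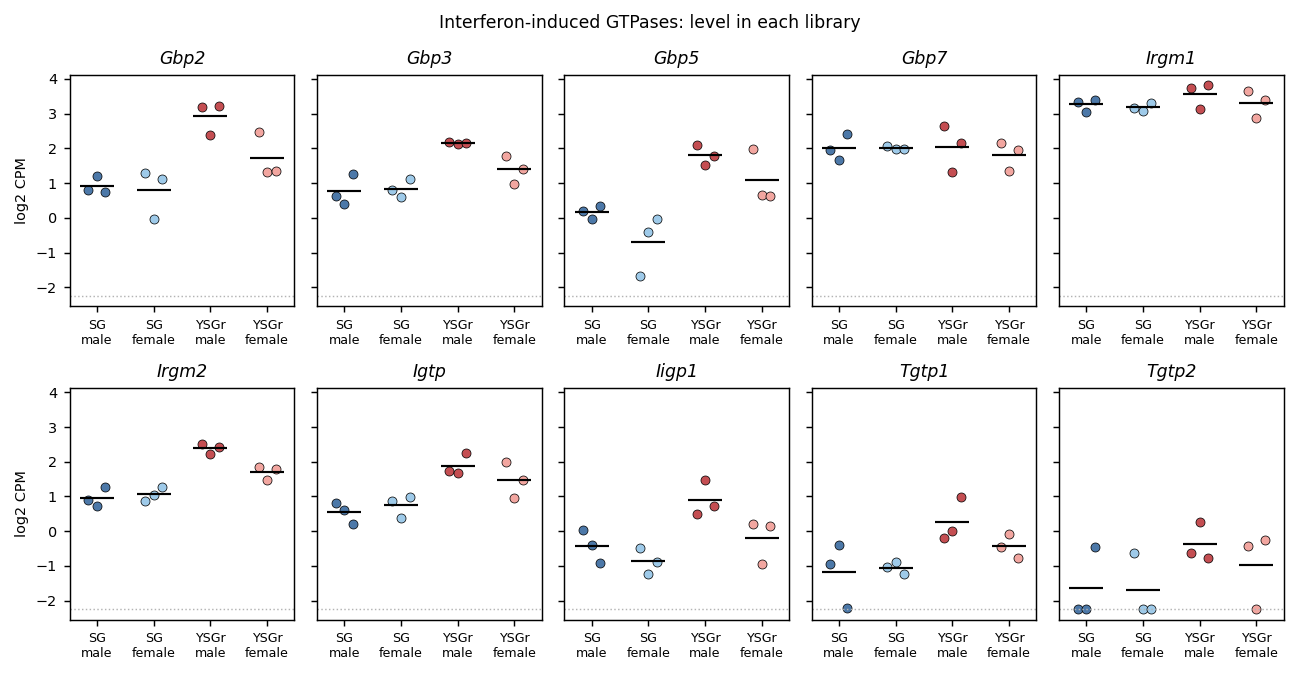
Level of each of the 10 GTPase genes in log2 CPM (vertical axis) in every library, by genotype and sex; points are libraries, horizontal bars group means of 3, and the dotted line the value of a gene with no reads. For Gbp2, Gbp5 and Irgm2 all 6 YSGr points lie above all 6 SG points, while those of Gbp7 and Irgm1 overlap.

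Gbp2, a GTPase that coats pathogen vacuoles and is anchored to membranes by a lipid tail, had 15, 19 and 14 estimated reads in SG males and 22, 7 and 18 in SG females. In YSGr it had 89, 47 and 89 reads in males and 51, 22 and 21 in females. All 6 YSGr libraries were above all 6 SG libraries in log2 CPM, but only just, at 1.32 in the lowest YSGr and 1.29 in the highest SG library. The SG mean was 0.86 ± 0.49 and the YSGr mean 2.32 ± 0.84 log2 CPM (SD, n = 6 each), and CPM was 3.28 times as high. The log2 fold change was 1.47 (SE 0.30, limma adjusted p = 0.0075).

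Gbp5, which promotes inflammasome assembly and carries a lipid tail as well, had the lowest level per length of the 4 Gbp members in SG. It had 9, 7 and 10 reads in SG males, 1, 5 and 7 in SG females, 41, 25 and 31 in YSGr males and 36, 13 and 12 in YSGr females. The groups did not overlap, and SG female 4 was the lowest library with a single read. Its log2 fold change was 1.71 (SE 0.34, limma adjusted p = 0.0063), from -0.27 ± 0.73 to 1.45 ± 0.66 log2 CPM (SD, n = 6 each), and its CPM ratio of 3.94 was the highest among the 10 members.

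Gbp3, which shares 4.79% of its 50-base windows with Gbp7 or another gene, had 13, 10 and 21 reads in SG males and 15, 12 and 18 in SG females. The YSGr males were close together, at 43, 39 and 41 reads, and the YSGr females lower, at 31, 17 and 22. Only YSGr female 11 fell within the SG range. The log2 fold change was 0.97 (SE 0.22, limma adjusted p = 0.015). Quantile normalization ended that call (0.79, adjusted p = 0.051).

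Gbp7, which is known for bringing the NADPH oxidase to phagosomes, did not move with its neighbours. It had 36, 27 and 48.9 reads in SG males, 39.0, 34.6 and 34 in SG females, 60.1, 21.8 and 40.7 in YSGr males and 40.2, 22.4 and 32.7 in YSGr females. The highest and the lowest values were both in YSGr males, and the groups overlapped throughout. Its log2 fold change was -0.09 with a 95% interval of -0.62 to 0.44 (SE 0.24, limma adjusted p = 0.83), and its sign depended on the setting. Part of its reads are not whole numbers. Of the 50-base windows of its transcript 12.9% also occur in other genes, 10.6% in the overlapping Gm43802, and whether this made the fractions was not tested.

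Irgm1, the regulator whose loss is known to weaken mice against bacteria and protozoa, was the most abundant member and did not pass. It had 97, 73 and 98 reads in SG males, 86, 76 and 89 in SG females, 130, 81 and 135 in YSGr males and 117, 69 and 93 in YSGr females. In log2 CPM 4 YSGr libraries lay above the highest SG library and YSGr female 11 below the lowest. The log2 fold change was 0.21 with a 95% interval of -0.16 to 0.58 (SE 0.17, limma adjusted p = 0.44). With library weights, which count unlike libraries less, it passed at 0.36 (adjusted p = 0.027).

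Irgm2 and Igtp, the other regulators, rose by nearly the same amount. Irgm2 had 16, 13 and 21 reads in SG males, 16, 17 and 20 in SG females, 55, 42 and 50 in YSGr males and 32, 24.4 and 29 in YSGr females. The groups did not overlap and the YSGr males were above the YSGr females. Its log2 fold change was 1.03 (SE 0.18, limma adjusted p = 0.0037), the smallest p among the members. Igtp had 15, 12 and 9 reads in SG males, 16, 10 and 16 in SG females, 31, 28 and 44 in YSGr males and 36, 16.6 and 23 in YSGr females. Of the YSGr libraries only female 11 lay within the SG range, and the log2 fold change was 1.03 (SE 0.24, limma adjusted p = 0.016). That call ended under quantile normalization (0.84, adjusted p = 0.060) and without SG female 5 (0.94, adjusted p = 0.050). Igtp and Irgm2 overlap on the same strand of chromosome 11, and 12.3% of the 50-base windows of Igtp also occur in Irgm2, so a part of their reads may be shared.

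The effectors were near the detection limit. Iigp1 had 8, 5 and 3 reads in SG males, 5, 2 and 3 in SG females, 12, 24 and 14 in YSGr males and 9, 3 and 8 in YSGr females. Of the YSGr libraries 5 were above every SG library, and female 11 was among the SG values. The log2 fold change was 0.99 (SE 0.32) and missed the threshold (limma adjusted p = 0.064), but passed without a filter (adjusted p = 0.048), without the mean-variance trend (0.036), with library weights (0.012) and without YSGr female 11 (0.032).

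Tgtp1 and Tgtp2 are near-identical, with 91.4% and 90.6% of their 50-base windows found in other genes, mostly in each other, so how their reads were divided is uncertain. Their sum was 3, 5 and 5 reads in SG males, 7, 3 and 2 in SG females, 11, 16.9 and 20.9 in YSGr males and 10, 7 and 9 in YSGr females. YSGr female 11 equalled SG female 4 at 7 reads, and the other YSGr libraries were above all SG libraries. As 1 feature the pair was above the filter level in 0 SG and 5 YSGr libraries, so it entered the test only through YSGr. Its log2 fold change was 1.19 (SE 0.29, limma adjusted p = 0.018). Taken apart and with no filter, Tgtp1 was at 1.03 (adjusted p = 0.067) and Tgtp2 at 1.00 (adjusted p = 0.21).

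Exact two-sided permutation tests of 6 against 6 libraries, of which the smallest possible p is 0.0022, gave that p for Gbp2, Gbp5 and Irgm2. They gave exact p = 0.0043 for Igtp, 0.0065 for Tgtp1, 0.0087 for Gbp3 and 0.026 for Iigp1. For Tgtp2, Irgm1 and Gbp7 the exact permutation p was 0.080, 0.21 and 0.70. Over all tested genes, 2.93% had all 6 YSGr libraries above all 6 SG libraries, as 3 members did. Of these, Gbp5 was among the tested genes only through its YSGr libraries.

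**Figure D3:**
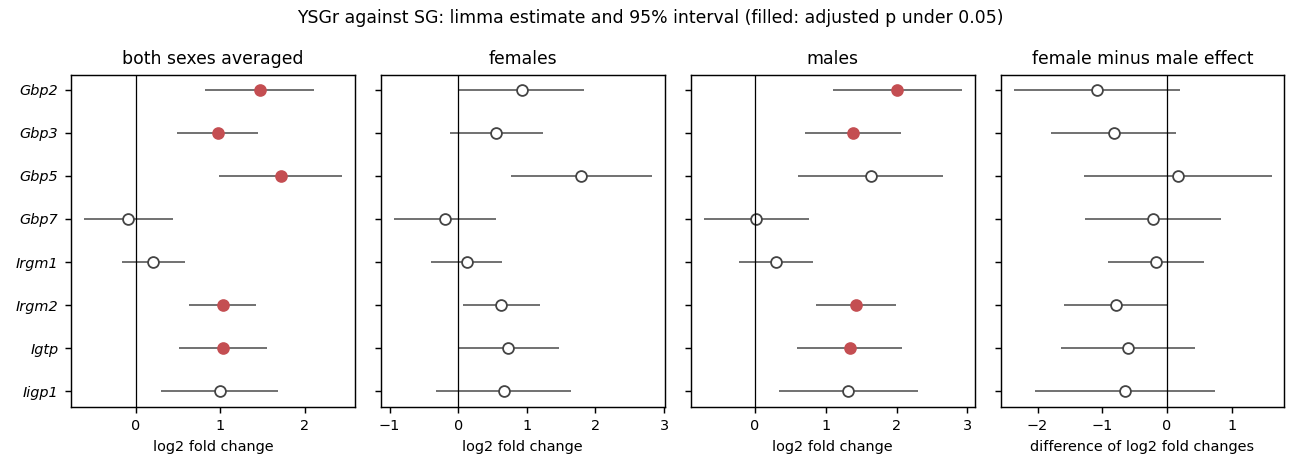
Log2 fold change of YSGr against SG for the 8 tested GTPase genes (horizontal axes) with 95% intervals, averaged over the sexes, in females, in males, and as the female minus the male effect. Filled points have an adjusted p under 0.05: 5 in the average, 4 in males and none in the other panels.

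In males 4 members rose, Gbp2, Gbp3, Irgm2 and Igtp, against 4.43% of genes called higher and 3.42% called lower. Gbp2 rose by 2.01 (log2 fold change, SE 0.42, limma adjusted p = 0.019), Irgm2 by 1.42 (SE 0.26, adjusted p = 0.011), Gbp3 by 1.38 (SE 0.31, adjusted p = 0.025) and Igtp by 1.33 (SE 0.34, adjusted p = 0.037). Gbp5 was at 1.63 (adjusted p = 0.053) and Iigp1 at 1.32 (adjusted p = 0.082). Gbp2 and Irgm2 were the 2 members called without SG male 2, YSGr male 7 or YSGr male 8, and Irgm2 the 1 called without YSGr male 9. The share of all genes called higher in males fell as well in these fits, to 1.38%, 3.17%, 1.19% and 2.93% in that order.

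In females 0 members passed with limma, against 1.15% of genes called higher and 1.87% called lower, and 3 had an unadjusted p under 0.05. Gbp5 was at 1.79 (SE 0.47, adjusted p = 0.063), Gbp2 at 0.92 (adjusted p = 0.32), Igtp at 0.73 (adjusted p = 0.34), Irgm2 at 0.63 (adjusted p = 0.26) and Gbp3 at 0.55 (adjusted p = 0.47). With library weights, which gave YSGr female 10 the highest weight and YSGr females 11 and 12 low ones, 6 members passed in females, but so did 15.7% of all genes as higher and 16.0% as lower.

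The female effect minus the male effect passed for 0 members with limma (1 at an unadjusted p under 0.05, Irgm2) and for 0.00707% of all genes. Irgm2 was at -0.79 (SE 0.37, adjusted p = 0.43), Gbp2 at -1.09 (SE 0.59, adjusted p = 0.46) and Gbp3 at -0.83 (SE 0.45, adjusted p = 0.46). A difference between the sexes was therefore not shown for any member. The YSGr females spread in 1 direction for every tested member: female 10 was above its group mean in 8 of 8 and female 11 in 0 of 8.

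The ratio of 1 member to another within a library was taken from the deposited log2 values, which include a prior count averaging 2 reads. That prior pulls ratios with low genes such as Gbp5 toward 0, and leaves them partly dependent on the scaling of the library. All 9 pairs within the Gbp members and within Irgm1, Irgm2 and Igtp are given as mean log2 ratios and as a description, since ratios were looked at after Gbp7 and Irgm1 were seen to stay apart. The ratio of Gbp5 to Gbp7 was -2.28 ± 0.75 in SG and -0.48 ± 0.51 in YSGr (SD, n = 6 each), that of Gbp3 to Gbp7 was -1.21 ± 0.19 and -0.15 ± 0.50, and neither overlapped between the genotypes. Gbp2 to Gbp7 was at -1.16 ± 0.59 and 0.40 ± 0.65, with overlap. Irgm1 to Irgm2 was at 2.21 ± 0.17 and 1.40 ± 0.31, and Irgm1 to Igtp at 2.58 ± 0.33 and 1.76 ± 0.22, again without overlap. Among the members that were called, the YSGr mean differed from the SG mean by -0.0040 for Irgm2 to Igtp, -0.25 for Gbp2 to Gbp5, 0.50 for Gbp2 to Gbp3 and -0.74 for Gbp3 to Gbp5, and each of these 4 overlapped.

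Levels can be ordered between genes only per length of transcript. In SG, Irgm1 led with 4.07 ± 0.42 CPM per kb (SD, n = 6), and its range lay apart from that of Gbp7 at 0.691 ± 0.125. Igtp at 0.683, Gbp2 at 0.668, Gbp3 at 0.588 and Irgm2 at 0.518 followed with overlapping ranges. Gbp5 at 0.227, Iigp1 at 0.147, Tgtp1 at 0.100 and Tgtp2 at 0.057 CPM per kb were lowest, and of these steps only that from Irgm2 to Gbp5 was between ranges that did not meet.

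In YSGr the order of the same levels was Irgm1 at 4.82 ± 1.18 CPM per kb (SD, n = 6), Gbp2 at 2.19 ± 1.21, Igtp at 1.54, Gbp3 at 1.25, Irgm2 at 1.15, Gbp5 at 0.897, Gbp7 at 0.675, Iigp1 at 0.392, Tgtp1 at 0.287 and Tgtp2 at 0.176. Every neighbouring pair in that order had overlapping ranges, although Irgm1 was above Gbp2 in 6 of 6 libraries. Gbp7 moved from rank 2 to rank 7 at about the same level. Irgm1 made up 41.6 to 45.8% of the summed CPM of the 10 members in SG libraries and 24.9 to 37.2% in YSGr libraries.

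**Figure D4:**
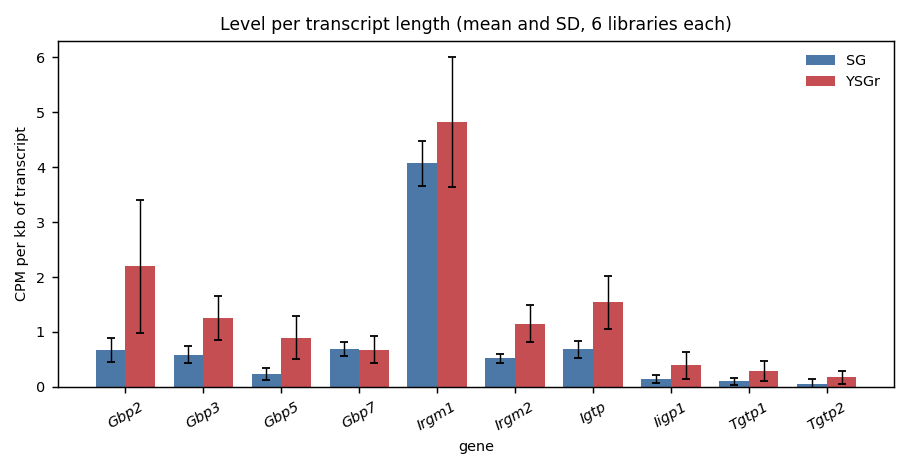
Mean level of each of the 10 GTPase genes in CPM per kb of its longest coding transcript (vertical axis), with bars from 0 for SG and YSGr and error bars of 1 SD over 6 libraries. Irgm1 is highest in both genotypes, at 4.07 and 4.82, and Gbp7 is the gene whose bars are nearly equal, at 0.691 and 0.675.

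The summed level of the members was 18.2 to 24.2 CPM in SG libraries (median 21.4) and 20.2 to 48.1 CPM in YSGr libraries (median 36.2). YSGr female 11, at 20.2, was the single YSGr library within the SG range. Deviations of the 8 tested members from their group means were positively correlated in 25 of 28 pairs, with Pearson's r from -0.20 to 0.86 and a median of 0.43 over 12 libraries, which share depth and scaling. Gbp3 and Irgm2 had the highest value (0.86, Spearman 0.92), followed by Gbp7 and Irgm1 (0.86, Spearman 0.84), and Iigp1 had the 3 negative ones. Among the 10 genes outside the family whose deviations were most like the mean of the members were Polr1b, Ripk2, 2700049A03Rik, Ndor1, 6720489N17Rik, H2-Q7, Tom1l1, C1s1 and Zfp46, with Pearson's r of 0.90 to 0.93 and Spearman's rho of 0.76 to 0.92. They were picked as the highest of 14147 over 12 libraries.

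Other genes of the family in the table were 15, of which 9 were tested. Of these, 4 were called higher and 0 lower in the limma average, with a median of 1.46. They were Gbp9 at 1.11 (adjusted p = 0.019), Gbp4 at 1.53 (adjusted p = 0.039), Ifi47 at 1.56 (adjusted p = 0.029) and Gm4070, whose reads cannot be told from those of Gvin1. Gbp9 alone of the 4 was above the filter level in 3 or more SG libraries. Gbp4 and Ifi47 were above it in 0 SG and 5 YSGr libraries and Gm4070 in 2 and 5, so these entered only through YSGr. Without SG male 2 and YSGr male 8, 1 of the 9 was called. Ifi47, another immunity-related GTPase, had 0 to 6 reads in SG and 7 to 30 in YSGr libraries, without overlap. Gbp9 had 8 to 21 reads in SG and 16 to 57 in YSGr, and Gbp4 0 to 5 and 2 to 24, with YSGr female 11 lowest in both.

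Gbp6 at 2.12 (adjusted p = 0.054), Gbp10 at 1.46 (adjusted p = 0.068) and Gm5431 at 0.95 (adjusted p = 0.14) did not pass. Gbp6 and Gbp10 share 90.2% and 82.5% of their 50-base windows with other genes. In YSGr male 8 Gbp6 had 7.35 reads, against 28 to 90.0 elsewhere in YSGr. Irgq, a distant relative, had 805 to 1244 reads in all libraries and a log2 fold change of -0.07 (adjusted p = 0.67). Gm4070 and Gvin1, very large inducible GTPase genes, share 98.9% and 99.1% of their windows with other genes, mostly each other. Gvin1 had 0 reads in YSGr females 11 and 12 while Gm4070 had 33 and 41, so the value of neither gene can be read alone and no fold change is given for them. Gbp2b, Gbp8, Gm4951, F830016B08Rik, Gm12185 and Gm4841 had at most 7 reads in any library and were not tested.

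**Figure D5:**
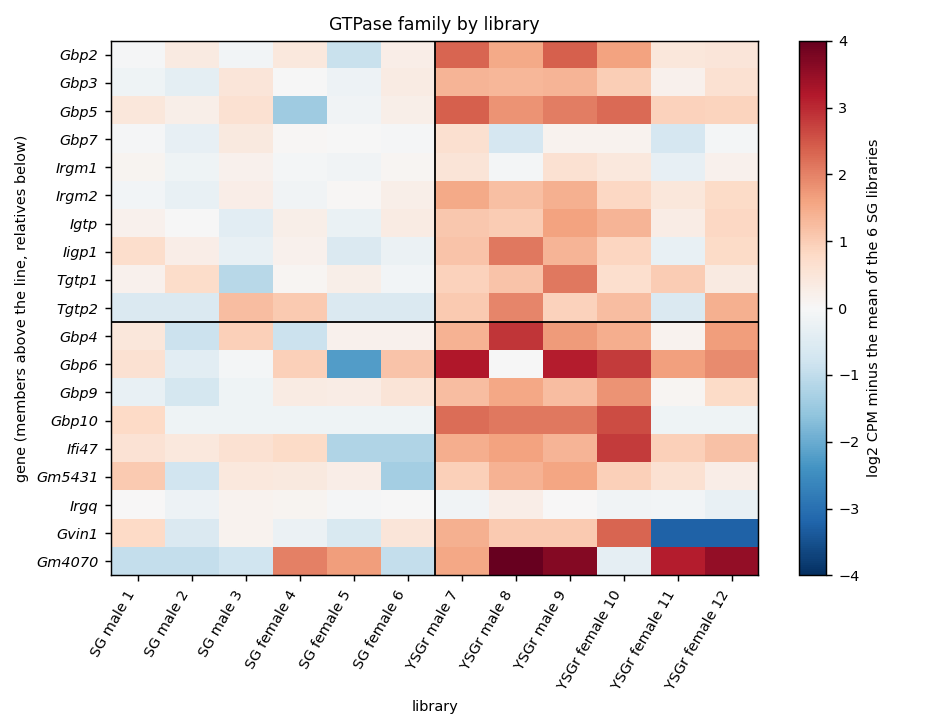
Log2 CPM of the 10 members (above the line) and of the 9 tested relatives (below) in every library, each minus the mean of the 6 SG libraries of that gene, from blue (lower) to red (higher). YSGr female 11 is the palest of the YSGr columns among the members, the rows of Gbp7, Irgm1 and Irgq are pale throughout, and Gvin1 and Gm4070 are opposite in YSGr females 11 and 12.

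Upstream of the members are the genes of interferon ligands, receptors and signalling. Ifng, the gene of interferon gamma, had 0 reads in all 12 libraries, where 3 reads, the limit that a count of 0 allows, are 0.301 to 0.333 CPM (counting error only). Of 20 tested genes on this list 3 rose and 0 fell in limma, against 6.16% of all tested genes called higher and 5.27% called lower. The median log2 fold change of the list was 0.19. The 3 were Ciita at 1.83 (adjusted p = 0.020) and Nlrc5 at 1.62 (adjusted p = 0.016), the regulators of MHC class II and class I genes, and Stat2 at 0.49 (adjusted p = 0.016). Ciita was above the filter level in 1 SG and 6 YSGr libraries and Nlrc5 in 0 and 4, so both entered the test only through YSGr. The interferon gamma receptor genes Ifngr1 at -0.28 (adjusted p = 0.14) and Ifngr2 at 0.10 (adjusted p = 0.50), the kinase gene Jak2 at 0.01 (adjusted p = 0.98), Irf1 at 0.40 (adjusted p = 0.16), Irf9 at 0.55 (adjusted p = 0.060) and the inhibitor Socs1 at 0.00 (adjusted p = 1.0) did not pass.

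Other targets of interferon were called more widely. Of 10 tested interferon gamma targets 7 rose and 0 fell, with a median of 0.77: the chemokine gene Cxcl10 at 3.37, the checkpoint ligand gene Cd274 at 1.51, Parp14 at 1.16, the immunoproteasome genes Psmb9 at 0.85 and Psmb8 at 0.73, the complement inhibitor gene Serping1 at 0.80 and the peptide transporter gene Tap1 at 0.73. Of 11 type I interferon targets 6 rose and 0 fell, with a median of 1.52: Oas1a at 2.27, Ifit1 at 1.90, Ifit3 at 1.82, Irf7 at 1.70, Oasl2 at 1.57 and Isg15 at 1.52. Among these, Cd274 of the first list and Oas1a, Isg15 and Ifit1 of the second were above the filter level in fewer than 3 SG libraries and entered only through YSGr, which the counts and medians include. In females 2 of the 10 (Cxcl10 and Serping1) and 0 of the 11 passed in limma, with 4 and 5 at an unadjusted p under 0.05. In males 3 (Cxcl10, Cd274 and Parp14) and 4 (Ifit1, Ifit3, Irf7 and Oas1a) passed.

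Downstream, the inflammasome genes Casp4 at 2.14 (SE 0.27, adjusted p = 0.00040), Aim2 at 1.21 (adjusted p = 0.039) and Casp1 at 1.15 (adjusted p = 0.019) rose among 7 tested, with 0 lower and a median of 0.28. Casp4, the mouse sensor of bacterial lipopolysaccharide in the cytosol to which these GTPases give access, had 7 to 14 reads in SG and 32 to 89 in YSGr libraries. It also passed in females (2.15, adjusted p = 0.0095) and in males (2.14, adjusted p = 0.0091). Of 15 autophagy and ubiquitin genes that act with the GTPases on vacuoles, only Gabarapl1 rose, at 0.53 (adjusted p = 0.044), with 0 lower and a median of 0.12. Trim21, a ubiquitin ligase, passed in males (1.12, adjusted p = 0.047). Of 5 genes for protein prenylation in general, a class of change that also anchors Gbp2 and Gbp5, 0 passed in limma. Of these 0 had an unadjusted p under 0.05, and the median was -0.12.

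Several macrophage, monocyte and neutrophil markers were called higher in YSGr as well. Of the T and NK cell markers only Cd4 was tested, and it was not called. The part of these cells in the results was not tested. In bulk tissue, fewer or more cells of a type and less or more RNA per cell cannot be told apart. Of 8 tested macrophage and monocyte markers 6 were called higher (Ccr2, Chil3, Gpnmb, Lgals3, Lyz2 and Ms4a7), and the summed level of the 10 on the list was 143 to 197 CPM in SG and 371 to 739 CPM in YSGr, with Chil3 at 0 in SG. Ccr2 and Chil3 entered the test only through YSGr, and the other 4 were above the filter level in 3 or more SG libraries. Cd163 at 0.22 (limma adjusted p = 0.70) and Mrc1 at 0.12 (limma adjusted p = 0.74) on the same list did not pass. Lyz2 had 842 to 1406 reads in SG and 2117 to 5088 in YSGr libraries, and Gpnmb 220 to 383 and 653 to 1757. The whole macrophage and monocyte list had 1310 to 1775 and 3566 to 7365 reads, so its sum rests largely on Lyz2 and Gpnmb. YSGr female 11, in which 8 of 8 members were below their group mean, had the lowest macrophage and monocyte sum of the YSGr libraries (371 CPM), but the second highest neutrophil sum (34.3 CPM) and T and NK cell sum (14.3 CPM). YSGr female 10, with 8 of 8 members above its group mean, had 653, 21.6 and 9.02 CPM. In YSGr female 11 Cd4 alone gave 136 of the 137 reads of the T and NK cell sum, and the other 11 genes had 1 read. Of 5 tested neutrophil markers 5 were called higher, but S100a8, S100a9, Cxcr2 and Mmp9 entered only through YSGr, and Csf3r (0.56, adjusted p = 0.024) was the 1 above the filter level in 3 or more SG libraries. The list had a summed level over 6 genes of 10.6 to 14.8 CPM in SG and 16.6 to 38.8 CPM in YSGr. Csf3r alone had 90 to 134 reads in SG libraries, where the whole list had 96 to 141. In YSGr libraries it had 112 to 211 reads and the whole list 150 to 366, so the sum rests largely on this gene.

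Microglia markers had 0 higher and 1 lower (Gpr34) of 10, with sums of 437 to 506 CPM and 411 to 543 CPM that overlapped. T and NK cell markers, in which cells the ligand Ifng is chiefly made, had 1 of 12 tested and 0 called in limma (0 at an unadjusted p under 0.05), with sums of 4.57 to 7.21 CPM and 4.55 to 20.1 CPM. Cd4 alone gave 68.2 to 99.3% of the reads of that sum. The other 11 genes together had 1 to 4 reads in SG libraries and 1 to 17 in YSGr libraries, too few to be tested. With no filter 1 of the 12 was called higher in the average. Cd3d, Ncr1 and Gzmb had 0 reads in SG, and Klrb1c had 0 in YSGr. Endothelial markers had 0 higher and 4 lower of 9, with sums of 95.3 to 155 CPM and 64.4 to 115 CPM. Astrocyte markers had 1 higher (Gfap) and 0 lower of 6, with sums of 1533 to 2461 CPM and 1024 to 2768 CPM, and the progenitor and tumour markers had 0 higher and 4 lower of 9.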

How the data were processed

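The authors deposited 1 table of log2 CPM for 12 libraries. Total RNA was sequenced at BGI on the BGISEQ-500, per the labels' protocols. Trimmomatic 0.33, RSEM 1.2.12, Bowtie2, Picard 1.95, edgeR 3.30.3 and the build mm10 are named in the submitters' processing notes, which do not give the role of each here. The strand setting is not given in the sources used here. The lowest deposited log2 value matches a prior count averaging 2 reads. Reads per gene were estimated from the steps of the values, and 92.0 to 93.0% of genes in a library were whole within 0.02 reads.

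A gene was kept if 3 or more of 12 libraries exceeded log2 CPM 0 (14147 genes). The test was limma (3.58.1, R 4.3.3) on the deposited scale, with 1 coefficient per group, a mean-variance trend and Benjamini-Hochberg adjustment at 0.05, two-sided. The fit was tested on simulated data. Fold changes include the prior count, which understates low genes. Transcript lengths and positions are from GENCODE M21, which held 15602 of the gene names (99.55%), and promoters from RefSeq on GRCm38.p6. Exact permutation tests used scipy 1.17.1.

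Named genes are all members, all measured relatives, and, of 7 lists (relatives, interferon signalling, interferon gamma targets, type I targets, vacuole targeting, inflammasome, prenylation), those past the threshold plus 8 signalling genes. Some genes that this rule names are not reported here. There were 7 marker lists. Members and lists were chosen with earlier results of these data known. Alternatives were filters, log2(CPM + 1), quantile and median scaling, eBayes settings, library weights, leaving out each library or both that stood apart, and summing Tgtp1 with Tgtp2. Library numbers 1 to 12 are not shared between groups, so nothing pairs libraries.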

Additional observations from a re-analysis of the deposited data

Results flagged for a closer look

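Gbp5 had a log2 CPM of -1.68, a single read, in SG female 4, where the other 5 SG libraries were at -0.40 to 0.34. Its gap to the nearest of the others was 0.633 of the range of the 6 libraries, above the 95% critical value of Dixon's test. Both genotypes of 10 members gave 20 groups to examine, and chance gives about 1 in 20.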

How the results depend on the processing

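Averaged over the sexes, 5 members were called. With library weights Irgm1 (0.36, adjusted p = 0.027) and Iigp1 (1.05, adjusted p = 0.012) were called as well in limma, where 17.3% of all genes were called higher. Without the mean-variance trend Iigp1 was called as well. The count was 6 of 10 tested with no filter and 3 of only 5 tested under the stricter filter (log2 CPM above 1 in 6 libraries). The share of all genes called higher was 5.44% and 5.64% there. It was 3 members under quantile normalization, 4 to 6 with 1 library left out and 5 without SG male 2 and YSGr male 8. The share of all genes was 5.69%, 3.49 to 8.45% and 6.79% in that order. In males (4 called) it was 2 members under quantile normalization, 2 without both of those libraries and 1 to 5 with 1 library left out. The share of all genes was 4.25%, 0.997% and 1.19 to 7.04%. In females (0 called) it was 6 members with library weights, 1 without both libraries and 0 to 0 with 1 left out. The share of all genes was 15.7%, 3.93% and 0.226 to 2.35%. The difference between the sexes gave 0 throughout. No call changed sign. Uncalled values that did were Gbp7 in the average (0.11 with library weights, 0.00060 without both libraries, -0.24 to 0.086 with 1 left out), Gbp7 in females (0.066 with weights, -0.36 to 0.035 with 1 left out), Irgm1 in females (-0.046 to 0.33 with 1 left out), Gbp7 in males (-0.30 under quantile normalization, -0.0034 under median centring, -0.28 to 0.37 with 1 left out), and, as a difference between the sexes, Gbp5 (-0.12 as log2(CPM + 1), -0.33 to 0.50 with 1 left out), Gbp7 (0.13 under quantile normalization, -0.57 to 0.087 with 1 left out) and Irgm1 (0.051 with weights, -0.39 to 0.035 with 1 left out). The cause was not tested. No paired analysis was possible because the groups share no replicate number. Depth limits the effectors: Iigp1, Tgtp1 and Tgtp2 had at most 24 reads in any library.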
